A study of Mus musculus with 4 samples.

Results

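Mouse pancreatic islets were examined for the transcripts of 9 receptor genes through which islet cells sense gut hormones, other hormones and nutrients, namely Glp1r, Gipr, Gcgr, Sstr3, Ffar1, Ffar4, Ghsr, Adra2a and Prlr. They were taken by gene symbol, and each symbol matched 1 of the 31053 genes in the count tables. These receptors, and the pathway lists used below, were chosen with earlier results of these data known. Their counts beside all-gene shares are therefore descriptions and not tests. The islets came from adult male C57BL/6 mice (the J substrain, per the study's methods), were pooled before being split into 4 portions, and were cultured for 6 h with no cytokine (untreated), with the inflammatory cytokine IL-1β, with the cytokine IFN-γ, or with the pair (IL-1β + IFN-γ). Each portion gave 1 droplet single-cell RNA-seq library, so a difference between conditions is a difference between libraries, has no replicate check and was given no p-value. The mice carried no named transgene or deletion, and the same pool of animals stands behind all 4 libraries.

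All but 1 of these receptors couple to G proteins. The incretin receptors Glp1r and Gipr, which bind gut hormones released after a meal, and the glucagon receptor Gcgr act mainly through Gs and cAMP and raise insulin secretion. Ffar1 and Ffar4 bind long-chain fatty acids, Sstr3 (a somatostatin receptor) and Adra2a (an adrenergic receptor) act through Gi and Go and restrain secretion, and Ghsr binds ghrelin. Prlr, the prolactin receptor, belongs to the cytokine receptors, signals through Jak2 and Stat5, and is known for its part in the growth of β-cells during pregnancy.

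Counts were of unique molecular identifiers (UMIs), each standing for 1 captured transcript. The libraries held 3486 (untreated), 2911 (IL-1β), 3694 (IFN-γ) and 2480 (IL-1β + IFN-γ) barcodes with 50731370, 20056630, 31209339 and 25716645 UMIs, and all values in this order below refer to these 4 libraries. Of 12571 barcodes, 7471 passed the filters of at least 200 genes, no more than 4000 genes and no more than 12% of UMIs from mitochondrial genes. The upper gene limit alone removed 843, 146, 345 and 222 cells. A cell was called β, α, δ or PP where insulin, glucagon, somatostatin or pancreatic polypeptide transcripts made up at least 5% of its UMIs and no other hormone reached more than 0.5 of that share. This gave 1193, 1192, 1300 and 1304 β-cells, 89, 344, 296 and 173 α-cells, 37, 86, 128 and 55 δ-cells, and 31, 31, 63 and 51 PP cells. All 9 β-cell, 7 α-cell, 4 δ-cell and 4 PP cell markers on the lists used were detected in their own class in every library. The libraries shared 16 barcodes in pairs, 4 of them among kept cells.

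Depth and hormone content differed between the libraries. The median β-cell had 17094, 8494, 11082 and 12253 UMIs, and islet hormones made up 42.2%, 22.2%, 28.6% and 33.4% of all β-cell UMIs. Levels are given in counts per 1000000 UMIs (CPM), summed over the cells of a class, with exact Poisson 95% intervals, and CPM ratios carry exact binomial 95% intervals. These intervals cover counting error only. A gene was tested where it had at least 50 UMIs over the 2 libraries compared, and was called higher or lower where its CPM ratio was at least 1.5-fold, which is a rule of size and not a statistical test. The median log2 ratio of all genes tested in β-cells was 0.36 with IL-1β, 0.30 with IFN-γ and 0.02 under both cytokines. With hormone genes left out of the totals it was -0.073, -0.0020 and -0.18. Ratios divided by the first of these medians are also given for receptors whose call or direction against the untreated library they changed. A sparse gene could reach 50 UMIs through a treated library alone, where it was high, and then had to differ. In the same way, a gene called lower could reach it only through the library it was compared with. Of the genes called higher with IL-1β, 299 of 3935 in β-cells, 443 of 1262 in α-cells and 230 of 504 in δ-cells would have missed the minimum at their untreated level in both libraries, and nothing is read from a count of such genes.

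In all 4 libraries 6 of the 9 receptors were highest in β-cells (Gipr, Gcgr, Sstr3, Ffar1, Adra2a and Prlr). Over the 4989 β-cells of the 4 libraries the level of Prlr was 102 CPM (99.1 to 104), against 1.10 CPM in α-cells, 5.25 in δ-cells and 4.57 in PP cells, levels that overlapped one another in every library. The level of Ffar1 was 74.8 CPM in β-cells, 13.1 in α-cells and 11.4 in PP cells, and a single Ffar1 UMI was found in 306 δ-cells. Adra2a had the same leading class, with 35.8 CPM in β-cells, 8.12 in δ-cells, 3.31 in α-cells and 1.71 in PP cells, and the last 2 have no order, since each was the higher in 2 of 4 libraries. For these 3 genes the β-cell interval lay apart from that of each other endocrine class in 4 of 4 libraries.

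The somatostatin receptor gene Sstr3 was shared by all 4 classes. Its level was 68.4 CPM in β-cells, 49.6 in δ-cells, 34.2 in PP cells and 33.6 in α-cells. The β-cell interval lay apart from that of α-cells in 4 libraries, from that of PP cells in 3 and from that of δ-cells in 1, so β- and δ-cells were neighbours that counting error mostly did not separate. The δ-cell level lay above that of PP cells in 3 libraries with no intervals apart, and α-cells lay above PP cells in 2 of 4, so α- and PP cells have no order. Gipr had 21.1 CPM in β-cells, 7.16 in δ-cells, 5.94 in α-cells and 4.0 in PP cells, pooled over the libraries. The intervals of the last 3 overlapped in every library, and the α-cell level lay above the δ-cell one in 3 of 4, against the pooled order.

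Transcripts of the glucagon receptor Gcgr were found in β-cells, at 11.8 CPM, and hardly in the α-cells that make its hormone, where 902 cells gave 1 UMI. Glp1r was sparse throughout, with 152 UMIs in 4989 β-cells (2.49 CPM), 1 UMI in δ-cells and 0 in α- and PP cells. Ffar4 had another order of classes, with 81.6 CPM in δ-cells, 51.5 in α-cells, 34.8 in PP cells and 3.85 in β-cells. Its β-cell interval lay below that of every other class in 4 of 4 libraries, while the δ-cell level was above the α-cell one in 4 with intervals apart in 2, and the α-cell level above the PP one in 3 with intervals apart in 0. Ghsr was seen mainly in δ-cells, which held 38 of its 49 endocrine UMIs and had 18.1 CPM, against 0.131 CPM in β-cells. With 4 libraries an exact two-sided sign-flip test between classes cannot reach 0.05 (its smallest p rounds to 0.13), so the order is described by the number of libraries that show it.

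**Figure D1:**
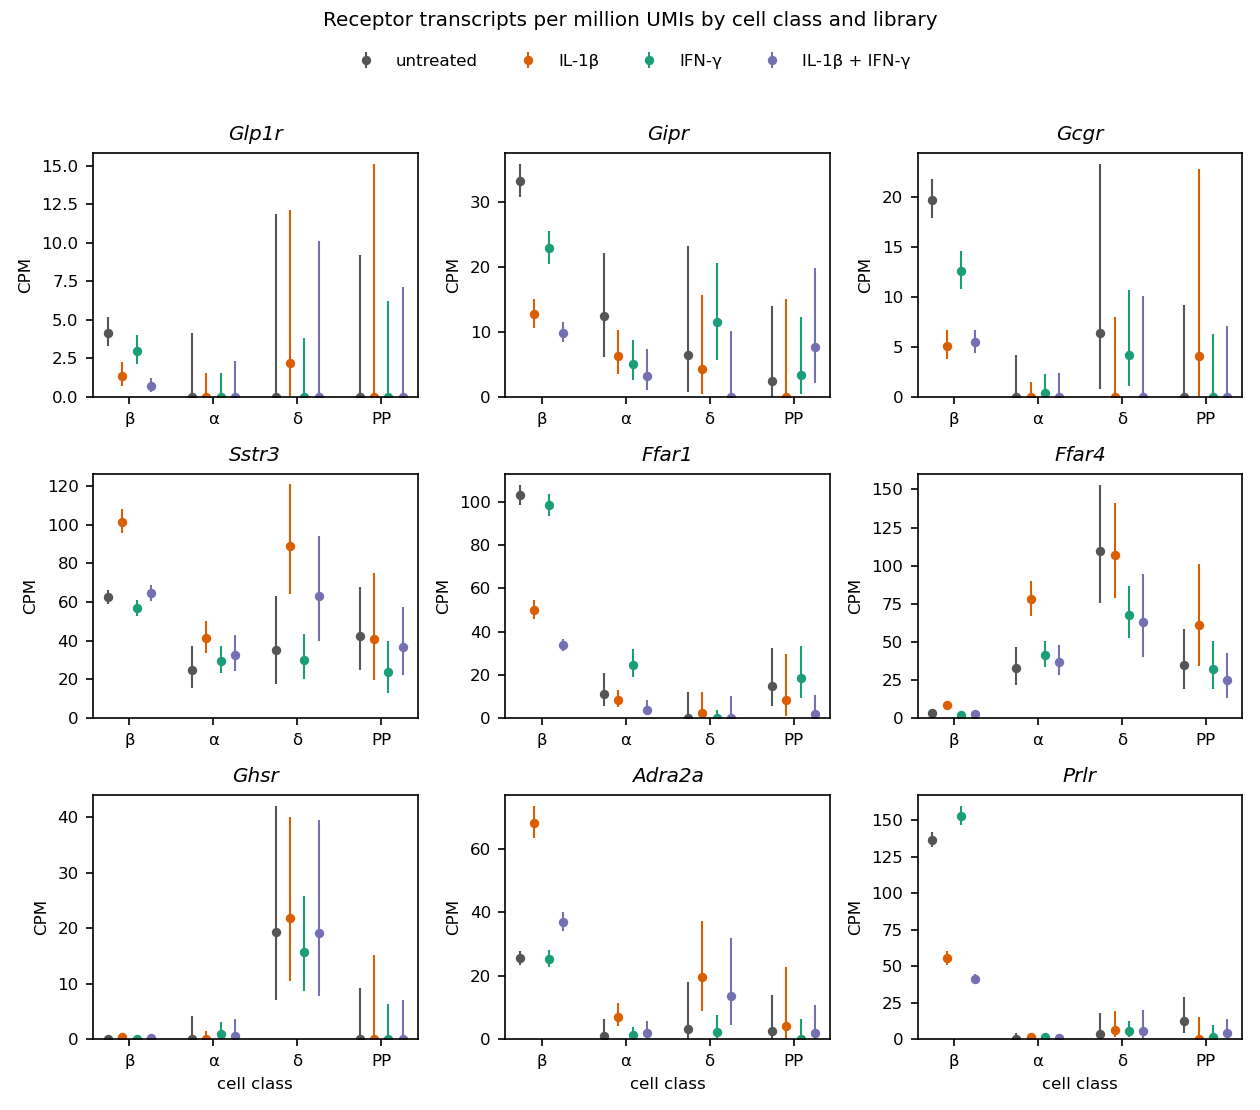
CPM of the 9 receptor genes (linear axes, a scale for each gene) in the β-, α-, δ- and PP cells of the 4 libraries, as points with exact Poisson 95% intervals. Among them 6 are highest in β-cells in every library, Ffar4 is lowest there, and Ghsr is seen mainly in δ-cells at 15.6 to 21.8 CPM.

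Free transcripts can enter any droplet, so the receptors were also counted in non-endocrine cells. Whether those cells make any of the receptors was not tested. Of 143 macrophage-like cells 1.40% had a Prlr UMI, 0.699% a Gipr UMI and 0.699% an Adra2a UMI, and the other 6 genes gave 0, which allows a share of up to 2.10% when 3 cells are taken as the limit of a count of 0. Of 131 endothelial-like cells the largest share was 3.05%, for Sstr3 and for Adra2a. Shares were larger in 84 ductal-like cells, at 14.3% for Ffar4 (3.69% in β-cells) and 9.52% for Sstr3. Somatostatin transcripts made up 0.240%, 0.867%, 0.0025% and 1.14% of the UMIs of ductal-like cells, so these held islet RNA unevenly. Of 62 acinar-like cells 4.84% had an Sstr3 UMI. The shares of β-cells were 54.5% for Prlr, 20.1% for Gipr, 31.2% for Adra2a and 49.7% for Sstr3, at library medians of 8494 to 17094 UMIs against 5170 to 9867 in macrophage-like cells. Thinned to 4000 UMIs as described below, 25 to 37 macrophage-like cells were left in a library, too few to set a limit below the β-cell shares of Glp1r, Gcgr, Ffar4 and Ghsr in any library and of Gipr and Adra2a in some.

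Both incretin receptors were lower in the β-cells of the 2 libraries that had received IL-1β. Gipr measured 33.1 CPM untreated, 12.7 with IL-1β, 22.8 with IFN-γ and 9.88 under both cytokines. Intervals of these 4 levels lay apart except for those of IL-1β and IL-1β + IFN-γ, the IFN-γ level being in the middle. The level was 2.60-fold lower with IL-1β (2.16 to 3.16) and 3.35-fold lower with both (2.82 to 4.01), and 1.45-fold lower with IFN-γ (1.27 to 1.66), or 1.79-fold once divided by the median of all genes. Glp1r measured 4.17, 1.35, 2.99 and 0.683 CPM from 84, 14, 43 and 11 UMIs. Its order of libraries was that of Gipr, 3.09-fold lower with IL-1β (1.74 to 5.90), 6.10-fold lower with both (3.24 to 12.7) and 1.40-fold lower with IFN-γ (0.956 to 2.07), or 1.72-fold over the median. In β-cells thinned to 4000 UMIs each, Glp1r was 1.94-fold lower with IL-1β and 5.51-fold lower with both, from too few UMIs to be tested.

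Gcgr, the third of the Gs-coupled receptors, measured 19.7 CPM untreated, 5.11 with IL-1β, 12.6 with IFN-γ and 5.47 under both cytokines. The 2 libraries with IL-1β were lowest and did not differ beyond their intervals. It was 3.86-fold lower with IL-1β (2.89 to 5.24), 1.57-fold lower with IFN-γ (1.31 to 1.88) and 3.61-fold lower with both (2.86 to 4.6). In β-cells thinned to 4000 UMIs each it was 1.44-fold lower with IFN-γ, short of 1.5-fold. The ratio of both to IL-1β alone was 1.07 (0.753 to 1.53). Gcgr lies on chromosome 11 (120530699 to 120538986, plus strand, GRCm38) and overlaps Gm11789 on the minus strand, which gave 202, 8, 90 and 19 UMIs in β-cells beside 397, 53, 181 and 88 for Gcgr. The sources used here do not state whether counting used the strand, so reads of the pair may not be told apart.

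Among the nutrient receptors Ffar1 was lower wherever IL-1β had been given. Its β-cell level was 103 CPM untreated, 50.1 with IL-1β, 98.6 with IFN-γ and 33.7 under both cytokines. Untreated and IFN-γ libraries lay together at a ratio of 0.955 (0.892 to 1.02), or 0.775 over the median. With IL-1β the level was 2.06-fold lower (1.87 to 2.27) and with both 3.07-fold lower (2.79 to 3.38). Ffar1 lies on chromosome 7 (30857390 to 30861564, minus strand, GRCm38).

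Prlr had the same split between libraries with and without IL-1β. It measured 137 CPM untreated, 55.6 with IL-1β, 153 with IFN-γ and 41.2 under both cytokines. It was 2.46-fold lower with IL-1β (2.25 to 2.70) and 3.32-fold lower with both (3.05 to 3.62). IFN-γ alone gave a ratio of 1.12 (1.06 to 1.18), or 0.909 over the median, so its direction turned with the scaling. Gm21973 overlaps Prlr on the same strand and had at most 1 UMI in the β-cells of a library, against 577 to 2756 for Prlr.

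The Gi- and Go-coupled receptors lay on the other side with IL-1β. Adra2a measured 25.6 CPM untreated, 68.2 with IL-1β, 25.4 with IFN-γ and 36.9 under both cytokines, the IL-1β library standing clear of the others. It was 2.67-fold higher with IL-1β (2.38 to 3.0), or 2.09-fold over the median. With both cytokines it was 1.44-fold higher (1.28 to 1.63), short of 1.5-fold, and with IFN-γ alone the ratio was 0.994 (0.867 to 1.14). Sstr3 measured 62.7, 102, 56.9 and 64.7 CPM, again highest with IL-1β. It was 1.62-fold higher there (1.49 to 1.76), but 1.27-fold over the median and 1.21-fold with hormone genes left out of the totals, so its call depended on the scaling. The other ratios of Sstr3 were 0.908 for IFN-γ (0.830 to 0.992) and 1.03 for the combined library (0.950 to 1.12).

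Ffar4, low in β-cells, measured 3.48 CPM untreated, 8.67 with IL-1β, 2.15 with IFN-γ and 2.73 under both cytokines, from 70, 90, 31 and 44 UMIs. The IL-1β library alone was high, at 2.5-fold (1.81 to 3.46), or 1.95-fold over the median. With IFN-γ it was 1.61-fold lower (1.04 to 2.55), which became 1.34-fold with no upper gene limit. In cells thinned to 4000 UMIs it was 2.07-fold lower, and 1.67-fold in a second draw, from too few UMIs to be tested. Ghsr gave 0, 4, 1 and 3 UMIs in β-cells and was not tested.

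Transcripts of glucagon and somatostatin were more common in β-cells of the IL-1β library, where Gcg, which encodes glucagon, measured 2416 CPM against 320 untreated, 670 with IFN-γ and 920 with both. Sst, which encodes somatostatin, measured 76.1, 719, 213 and 334 CPM, while Ppy, which encodes pancreatic polypeptide, was highest with IFN-γ, at 405, 504, 765 and 591 CPM. The 7 α-cell markers summed to 2751 CPM there, against 620, 1009 and 1121 in the other libraries. Scaling each receptor's level in α-, δ- and PP cells by the share of their hormone found in β-cells gave 2.07 of the 8.67 CPM of Ffar4 with IL-1β and 0.160 of 3.48 untreated, and the levels left had a ratio of 1.99. For Adra2a with IL-1β the same sum was 0.261 of 68.2 CPM and for Sstr3 1.36 of 102 CPM. The 8 macrophage markers summed to 80.9, 47.9, 46.2 and 143 CPM in β-cells, of which C1qa was the most abundant, while Adgre1 was at 0 in the 3 treated libraries, Csf1r with IL-1β, and Ptprc with both. The 6 acinar markers summed to 66.0, 13.0, 68.2 and 288 CPM, led by Ctrb1, and the part of either list in the receptor values was not tested.

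Counted together, 8 of the 9 receptors had enough UMIs in β-cells. The receptors were chosen with earlier results of these data known, so the all-gene shares are given for scale only. With IL-1β 3 were higher and 5 lower, beside 35.8% higher and 11.1% lower of the 10997 genes tested, and over the median 2 were higher and 5 lower, beside 18.4% and 21.1%. With IFN-γ none were higher and 2 lower (Gcgr and Ffar4), beside 19.8% and 2.09% of 11158 genes, and over the median none were higher and 4 lower, beside 6.69% and 6.51%. With both cytokines none were higher and 5 lower, beside 20.9% and 20.7% of 11129 genes, and the same over the median, beside 19.9% and 21.5%. Glp1r, among the 5 lower with IL-1β and with both, passed the UMI minimum only through the untreated library, where it was high. Nothing is read from its place in these counts. The median log2 ratio of the 8 receptors was -1.17 with IL-1β, -0.31 with IFN-γ and -1.67 under both cytokines, against all-gene medians of 0.36, 0.30 and 0.02. These comparisons share the untreated library.

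**Figure D2:**
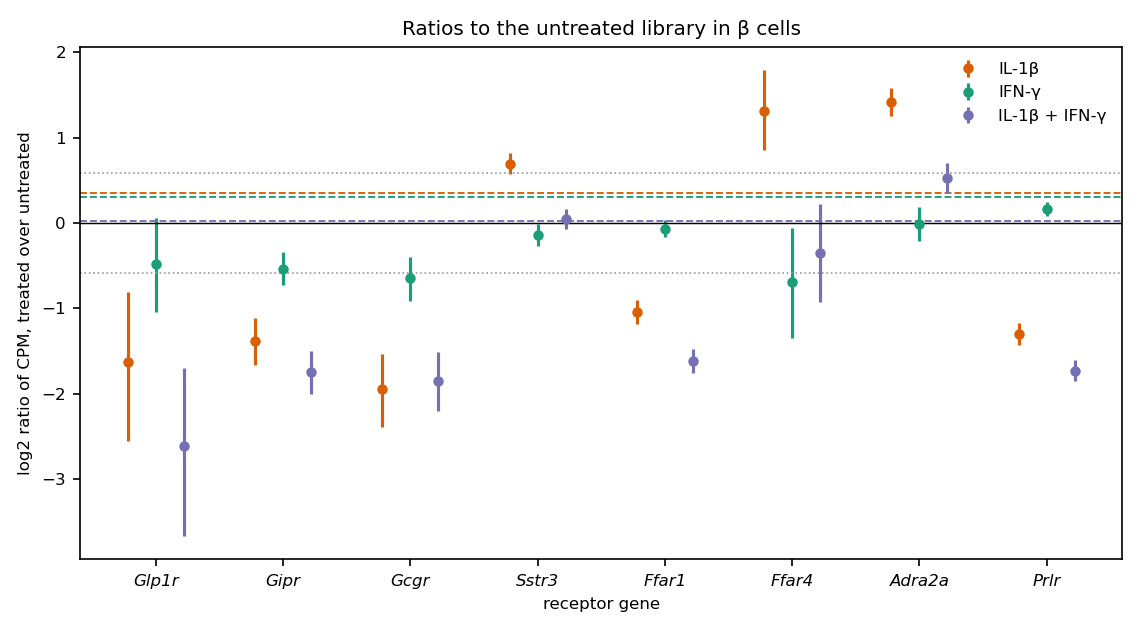
log2 ratio of β-cell CPM to the untreated library for 8 receptors, as points with 95% intervals for counting error. Dashed lines are the medians of all genes tested and dotted lines mark 1.5-fold. Glp1r, Gipr, Gcgr, Ffar1 and Prlr lie below -1 in both comparisons with IL-1β. Adra2a, Ffar4 and Sstr3 lie above 0 in the comparison of IL-1β alone, and with both cytokines Adra2a stays above 0 and Sstr3 lies near 0.

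The combined library was also set beside each single cytokine. Against IL-1β alone, 3 of 7 receptors were lower with both (Ffar4 3.17-fold, Adra2a 1.85-fold and Sstr3 1.57-fold) and none higher, beside 27.3% and 5.24% of 10678 genes, and over the median Ffar4 alone was lower, 2.54-fold, beside 9.39%. Against IFN-γ alone, 5 of 8 were lower (Glp1r 4.37-fold, Prlr 3.72-fold, Ffar1 2.93-fold, Gipr 2.31-fold and Gcgr 2.30-fold) and none higher, beside 30.1% and 10.2% of 11008 genes, and over the median Adra2a (1.76-fold) and Ffar4 (1.54-fold) were higher as well, beside 16.7% of genes higher and 18% lower on that scale. The receptors low in the combined library thus lay nearer to their IL-1β than to their IFN-γ level, with ratios to IL-1β of 0.672 for Ffar1, 0.741 for Prlr, 0.776 for Gipr and 1.07 for Gcgr. Glp1r, with 25 UMIs over the pair, was not tested against IL-1β. Against IFN-γ it passed the UMI minimum only through the IFN-γ library, where it was high, so nothing is read from that call.

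The share of β-cells with a UMI was compared after each cell had been thinned to 4000 UMIs, which left out 38, 74, 52 and 31 shallower cells. Prlr was then seen in 38.4% of untreated cells (35.5 to 41.2), 21.4% with IL-1β (19.0 to 23.9), 44.5% with IFN-γ (41.7 to 47.3) and 12.6% under both cytokines (10.9 to 14.6). Ffar1 was seen in 33.3%, 16.5%, 31.7% and 12.9% of cells, Gipr in 13.9%, 5.99%, 9.29% and 3.85%, and Gcgr in 7.19%, 2.15%, 5.05% and 1.89%. Adra2a was seen in 10.3%, 23.6%, 9.05% and 13.7%. For Prlr, Ffar1, Gipr and Adra2a the libraries stood in the same order by share as by CPM.

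Before thinning, the shares of Sstr3, Prlr, Gipr and Adra2a stood in another order than their levels, while those of Ffar1 kept it. Sstr3 was seen in 62.5%, 47.9%, 44.9% and 44.6% of cells unthinned, highest in the deepest library, and in 21.7%, 31.4%, 18.8% and 20.5% at equal depth. The unthinned shares were 79.0%, 35.1%, 69.1% and 35.3% for Prlr, 75.3%, 31.0%, 58.2% and 29.5% for Ffar1, 39.3%, 9.98%, 20.5% and 11.3% for Gipr, and 33.0%, 38.8%, 22.1% and 31.8% for Adra2a. Glp1r was seen in 18, 10, 13 and 4 thinned cells, or 1.56%, 0.894%, 1.04% and 0.314%, too few to order the treated libraries.

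**Figure D3:**
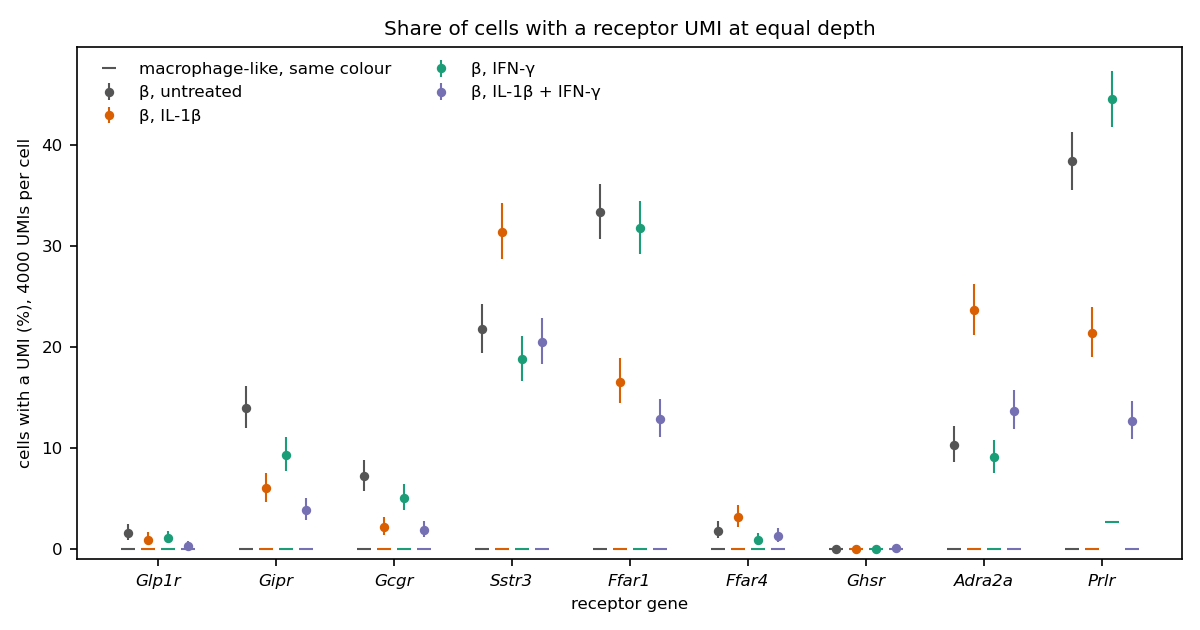
Percentage of β-cells with at least 1 UMI of each receptor after thinning to 4000 UMIs per cell, as points by library with exact binomial 95% intervals; short dashes are macrophage-like cells of the same library. Prlr is seen in 12.6% to 44.5% of β-cells, and the 25 to 37 macrophage-like cells of a library stay at 0 except for Prlr with IFN-γ, at 2.70%.

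A thinned β-cell held a mean of 1.28 of the 9 receptors untreated, 1.05 with IL-1β, 1.20 with IFN-γ and 0.671 under both cytokines. None was seen in 23.0% of untreated cells (20.6 to 25.6), 30.4% with IL-1β, 26.0% with IFN-γ and 48.8% under both cytokines, and 3 or more were seen in 11.1%, 6.62%, 9.46% and 2.75%. Untreated cells with an Ffar1 UMI had Prlr in 39.0% and Gipr in 14.8%, and cells without one in 38.1% and 13.5%, so these shares overlapped within their intervals. In the IFN-γ library 51.0% of cells with an Ffar1 UMI (46.0 to 56.0) and 41.4% of those without (38.1 to 44.8) had Prlr, while in the other libraries these shares overlapped. Sstr3 was seen in 32.8% of untreated cells with an Adra2a UMI (24.4 to 42.0) and in 20.5% of those without (18.0 to 23.1). The treated libraries did not show that gap, with Sstr3 in 30.3% and 31.7% for IL-1β, 21.2% and 18.5% for IFN-γ, and 21.3% and 20.4% in the combined library, each pair overlapping within its intervals. With IL-1β Sstr3 was seen in 17.9% of cells with a Gipr UMI (9.61 to 29.2) and 32.3% of those without (29.4 to 35.2). Every pair of 6 receptors (Prlr, Ffar1, Sstr3, Gipr, Gcgr and Adra2a) was compared in each library, and the pairs not named here overlapped.

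The sequence before a transcription start is shown for Prlr and Sstr3, β-cell receptors that stood on opposite sides of the untreated level with IL-1β. The RefSeq table for GRCm38.p6 held 11 windows for 8 of the 9 receptors, and Gipr is named only. Each window is the 250 bases before a start, on the strand of the gene, and 5 of the 11 held no base of an annotated exon, among them both shown here. That of Prlr precedes the second of its 3 starts, inside the gene, at chr15:10223656-10223905 (plus strand), and that of Sstr3 precedes 1 of its 2 starts at chr15:78541407-78541656 (minus strand). Capitals mark matches on either strand to TGACG (the core of a cAMP response element), TTCNNNGAA (the form bound by Stat factors), an NF-κB type motif (3 G, 5 of any base, then 2 C) and TAATTA (a homeodomain site).
Prlr: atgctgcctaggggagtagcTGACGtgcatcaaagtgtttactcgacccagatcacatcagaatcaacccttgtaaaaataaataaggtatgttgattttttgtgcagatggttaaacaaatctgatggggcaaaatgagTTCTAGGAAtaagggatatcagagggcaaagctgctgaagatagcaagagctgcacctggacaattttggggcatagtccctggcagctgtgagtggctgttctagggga
Sstr3: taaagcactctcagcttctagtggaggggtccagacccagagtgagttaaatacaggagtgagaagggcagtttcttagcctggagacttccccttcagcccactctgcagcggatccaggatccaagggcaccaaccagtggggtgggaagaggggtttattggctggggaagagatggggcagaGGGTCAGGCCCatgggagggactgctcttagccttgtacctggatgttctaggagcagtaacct
The Prlr window held TGACG, starting at base -230 counted back from the transcription start, and TTCNNNGAA, starting at base -110. The Sstr3 window held 2 overlapping matches to the NF-κB type motif at bases -64 and -63, while the window of its other start held TGACG at base -9 and no such match. The other 2 Prlr windows held none of the 4 motifs. Glp1r and Gcgr, low with IL-1β, held the NF-κB type motif as well, at bases -167, -93 and -92 and at bases -173, -86 and -85. The Adra2a window, which lies within an annotated exon and is not printed, held TGACG at base -69 and overlapping NF-κB type matches at bases -243 and -242, and the windows of Ffar1, Ffar4 and Ghsr held none of the 4 motifs. Of the 32851 windows in the table, 17.8% held TGACG, 7.02% TTCNNNGAA, 45.8% the NF-κB type motif and 4.84% TAATTA. A match is a run of letters and not a shown site.

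In α-cells Ffar4 and Sstr3 were higher with IL-1β. Ffar4 measured 32.6 CPM untreated, 78.0 with IL-1β, 41.5 with IFN-γ and 37.0 under both cytokines, so the IL-1β library stood alone. It was 2.39-fold higher than untreated (1.61 to 3.67), and the level with both was 2.11-fold lower than with IL-1β (1.56 to 2.88). Sstr3 measured 24.7, 41.3, 29.8 and 32.5 CPM and was 1.67-fold higher with IL-1β (1.04 to 2.78), a call that rested on 22 untreated UMIs and came to 1.40-fold with no upper gene limit. RNA of the other endocrine classes, scaled by their hormone in α-cells, would give 3.64 of the 41.3 CPM of Sstr3 and 3.47 of the 78.0 CPM of Ffar4 with IL-1β. These were 2 of 2 receptors tested there, beside 18.9% of 6692 genes higher and 16.5% lower.

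Ffar1 in α-cells was highest with IFN-γ. It measured 11.2, 8.35, 24.7 and 3.83 CPM from 10, 20, 59 and 6 UMIs, 2.20-fold higher with IFN-γ than untreated (1.12 to 4.82), or 2.05-fold over the all-gene median of 0.10 (log2). With both it was 6.46-fold lower than with IFN-γ (2.80 to 18.3). The same scaled RNA of other classes would give 1.17 of the 24.7 CPM with IFN-γ and 1.52 of the 11.2 untreated. Ffar1 reached 50 UMIs only through the IFN-γ library, where it was high, so nothing is read from its call, which was 1 of 3 beside 15.1% of 6963 genes higher and 5.8% lower (8.75% lower over the median). Sstr3 had a ratio of 1.20 there and Ffar4 of 1.27, and neither was called. With both cytokines neither Sstr3 (1.31) nor Ffar4 (1.13) was called, beside 18.3% and 21.4% of 5639 genes. The combined library had 1 of 2 lower against IL-1β (Ffar4), beside 9.83% higher and 15% lower of 7111 genes, and 1 of 3 lower against IFN-γ (Ffar1), beside 28.6% of 7454. Ffar1 again passed the UMI minimum only through the IFN-γ library, so nothing is read from that lower call.

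The other receptors were too sparse in α-cells to test. Gipr measured 12.4, 6.26, 5.03 and 3.19 CPM from 11, 15, 12 and 5 UMIs, with overlapping intervals. Adra2a gave 1, 17, 3 and 3 UMIs, or 1.12, 7.09, 1.26 and 1.91 CPM, the IL-1β library again highest with an interval that overlapped the untreated one. Prlr gave at most 4 UMIs in a library, Gcgr 1 in all and Glp1r 0.

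In δ-cells the ghrelin receptor gene Ghsr lay close together across the libraries. It measured 19.3 CPM untreated, 21.8 with IL-1β, 15.6 with IFN-γ and 19.1 under both cytokines, from 6, 10, 15 and 7 UMIs, and all intervals overlapped. The untreated interval ran from 7.08 to 42.0 CPM, so only a large difference could have been seen. Ffar4 measured 109, 107, 67.8 and 62.9 CPM, low in the 2 libraries with IFN-γ. It was 1.61-fold lower with IFN-γ (1.03 to 2.48) and 1.74-fold lower with both (0.994 to 3.09), and IL-1β alone gave a ratio of 0.975 (0.617 to 1.56). The size of the Ffar4 difference and, with IFN-γ, its direction moved with the cells used, as given below.

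Sstr3 in δ-cells had its highest CPM in the 2 libraries with IL-1β. With both it was too sparse to test against untreated, and those intervals overlapped. It measured 35.4, 89.2, 30.3 and 62.9 CPM from 11, 41, 29 and 23 UMIs, and was 2.52-fold higher with IL-1β than untreated (1.27 to 5.44). The size moved with the cells used, at 4.22-fold with a leading hormone of at least 10%, 2.44-fold with a second hormone of at most 0.2 of it, and 1.70-fold and 1.38-fold in 2 draws of thinned cells, all below the UMI minimum. RNA of the other endocrine classes would give 3.48 of its 89.2 CPM with IL-1β and 4.2 of its 35.4 CPM untreated. It passed the UMI minimum only through the IL-1β library, so nothing is read from its call, 1 of 2 beside 21.6% of 2329 genes. With IFN-γ and with both 1 of 1 was lower (Ffar4), beside 7.34% of 3692 genes (8.4% over the median) and 20.4% of 1986. With both, Ffar4 passed the UMI minimum only through the untreated library, where it was high, so nothing is read from that call. The combined library had 1 of 2 lower against IL-1β (Ffar4, 1.70-fold), beside 18.3% of 2497 genes, and 1 of 2 higher against IFN-γ (Sstr3, 2.08-fold, 1.15 to 3.72), beside 15.3% of 3804, though Sstr3 again passed the minimum only through the library where it was high. As a mean over cells of each cell's CPM, the Ffar4 level was 1.17-fold lower with IFN-γ and 1.38-fold lower with both, so both calls were lost when each of the 37 untreated cells had equal weight. With both it was 2.61-fold lower at a leading hormone of at least 10%, and 4.06-fold at a second of at most 0.2. The 2 draws of thinned cells gave 1.52-fold and 1.90-fold lower with both, and 2.10-fold lower and a ratio of 1.06 with IFN-γ. These hormone-rule and thinned values were below the UMI minimum.

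PP cells numbered 31 to 63 in a library, and no receptor reached 50 UMIs in any pair. Sstr3 measured 42.5, 40.9, 23.7 and 36.7 CPM and Ffar4 35, 61.3, 32.2 and 25.1 CPM, and for both genes all intervals overlapped. Ffar1 gave 6, 2, 11 and 1 UMIs. Glp1r and Ghsr gave 0 UMIs in PP cells, which allows up to 1.71 CPM over the 4 libraries when 3 UMIs are taken as the limit of a count of 0.

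Genes that act downstream of these receptors were read in β-cells by lists of known pathway members. Their counts stand beside the all-gene shares given above for β-cells, 35.8% higher and 11.1% lower with IL-1β, 19.8% and 2.09% with IFN-γ, and 20.9% and 20.7% with both. Over the median these shares were 18.4% and 21.1%, 6.69% and 6.51%, and 19.9% and 21.5%. Of the 36 genes of the Gs and cAMP list, 25 were tested. With IL-1β 11 were higher and 6 lower, with IFN-γ 5 higher and none lower, and with both 3 higher and 9 lower, with median log2 ratios of 0.44, 0.25 and -0.22. Over the all-gene median 7 were higher and 9 lower, 2 and 4, and 3 and 9, so with either cytokine alone the lean turned with the scaling. Pde1c, a phosphodiesterase that breaks down cyclic nucleotides, measured 30.9, 145, 55.6 and 114 CPM, 4.68-fold higher with IL-1β (4.26 to 5.15) and 3.69-fold higher with both (3.37 to 4.05). The phosphodiesterase Pde3a was on the low side, at 4.77, 1.25, 6.39 and 0.932 CPM, as was Pde4a, at 2.68, 1.16, 2.22 and 0.311. Pde3a and Pde4a passed the UMI minimum only through the untreated library, where they were high, so nothing is read from their calls. Adcy9, an adenylyl cyclase that makes cAMP, measured 49.9, 20.5, 38.7 and 19.4 CPM, 2.43-fold lower with IL-1β and 2.57-fold lower with both. Gnas, the Gs α-subunit and the most abundant gene of the list, had ratios of 1.36, 1.19 and 0.905, the second becoming 0.967 over the median.

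The Gi and Go list had more genes higher than lower with IL-1β and with both. With IL-1β 11 of 19 tested were higher and 2 lower, with IFN-γ 6 of 20 higher and none lower, and with both 9 of 20 higher and 1 lower, with medians of 0.99, 0.38 and 0.54. Over the all-gene median 10 were higher and 3 lower with IL-1β, 1 and 1 with IFN-γ, and 8 and 1 with both. Gnb4, a β-subunit gene with 17 untreated UMIs, was among the higher genes with IFN-γ and with both and passed the minimum through the treated libraries alone. Rgs4, which speeds the shut-off of Gi and Gq signals, measured 39.3, 485, 66.3 and 227 CPM, 12.3-fold higher with IL-1β (11.4 to 13.3) and 5.78-fold higher with both (5.35 to 6.25). Its relative Rgs16 measured 4.72, 21.9, 3.96 and 23.9 CPM, and Gng2, a γ-subunit gene, 4.47, 28.6, 6.04 and 15.4. Gnai1, an inhibitory α-subunit gene, measured 14.6, 4.34, 10.8 and 4.35 CPM, 3.37-fold lower with IL-1β and 3.36-fold lower with both. Gnai2, the most abundant of the list, had ratios of 1.02, 1.15 and 1.07, the first 2 becoming 0.801 and 0.934 over the median.

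The Gq list, the route used by Ffar1, was mixed. With IL-1β 5 of 14 were higher and 3 lower, with IFN-γ 2 of 13 higher and none lower, and with both 2 of 14 higher and 4 lower, with medians of 0.32, 0.32 and -0.06. Over the all-gene median the counts were 2 and 4, none and none, and 2 and 4. Gna14, a Gq-family α-subunit gene, had 8 UMIs untreated and measured 0.397, 17.3, 1.94 and 11.2 CPM, 43.7-fold higher with IL-1β (21.7 to 103) and 28.3-fold higher with both (14.1 to 66.6). It reached the UMI minimum through those 2 libraries alone, so its place in the counts was fixed by the filter. Itpr1 and Itpr2 encode channels that release calcium from stores. Itpr2 was 2.71-fold lower with IL-1β and 3.25-fold lower with both, and Itpr1 1.77-fold and 2.46-fold lower, with a ratio of 1.48 for IFN-γ alone. Prkcd, a protein kinase C, was 1.76-fold higher with IL-1β, which was 1.38-fold over the median and no longer a call, and 2.56-fold higher with both, and Gna11, the most abundant of the list, had ratios of 0.650, 0.893 and 0.699.

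Of the 10 arrestins and receptor kinases, 1 of 8 tested was higher and 1 lower with IL-1β, 2 of 9 were higher and none lower with IFN-γ, and 1 of 9 was higher and 2 lower with both. Their median log2 ratios were -0.20, 0.17 and -0.26, and over the all-gene median 1 was higher and 4 lower, none and 1, and 1 and 3. Grk3, a kinase that marks active receptors for arrestin, measured 61.7, 136, 85.9 and 146 CPM, 2.21-fold higher with IL-1β (2.04 to 2.38) and 2.36-fold higher with both (2.21 to 2.53). Arrb2, which encodes a β-arrestin, was 1.76-fold lower with IL-1β and 1.81-fold lower with both.

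On the route downstream of Prlr, 2 of 8 prolactin and growth hormone signaling genes were higher and 1 lower with IL-1β, 1 of 8 was higher and none lower with IFN-γ, and 3 of 9 were higher and 2 lower with both, 1 of the 3 (Tph2, from 14 untreated UMIs) having passed the minimum through the treated library alone. The medians were -0.06, 0.27 and -0.13, and over the all-gene median 2 were higher and 3 lower, 1 and 1, and 3 and 2. Jak2, the kinase bound to Prlr, measured 12.9, 46.4, 29.5 and 61.8 CPM, 3.59-fold (3.08 to 4.19), 2.29-fold (1.95 to 2.68) and 4.79-fold (4.17 to 5.51) higher in the treated libraries. Cish, a feedback inhibitor of cytokine receptors, measured 4.57, 10.1, 4.44 and 36.0 CPM, highest with both at 7.88-fold (6.31 to 9.92). Socs2, an inhibitor of the same family, was 1.92-fold lower with IL-1β and 2.01-fold lower with both. Ccnd2, a cyclin known in β-cell growth and the most abundant of the list, had ratios of 1.13, 1.28 and 0.914, the first becoming 0.884 over the median.

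Among 53 other receptors known in islets, 17 had enough UMIs, of which 4 were higher and 6 lower with IL-1β, 3 higher and 2 lower with IFN-γ, and 3 higher and 8 lower with both. Their medians were 0.16, 0.17 and -0.52, and over the all-gene median 3 were higher and 7 lower, 1 and 3, and 3 and 8. Gpr119, a lipid receptor that raises cAMP, measured 6.70, 1.16, 6.60 and 0.559 CPM, 5.80-fold lower with IL-1β (3.21 to 11.5) and 12-fold lower with both (6.13 to 26.8). Galr1, a galanin receptor gene, measured 19.2, 5.20, 25.2 and 1.24 CPM, 3.69-fold lower with IL-1β and 15.5-fold lower with both. The calcium-sensing receptor gene Casr was 4.16-fold and 3.37-fold lower, and Gpr142, which senses amino acids, 4.84-fold and 9.39-fold lower. Gpr119 and Gpr142 passed the UMI minimum only through the untreated library, as did Casr with IL-1β and Galr1 with both. Nothing is read from their place in those counts. Igf1r, the IGF-1 receptor gene and the most abundant of the list, was 3.5-fold higher with IL-1β, 2.02-fold with IFN-γ and 1.60-fold under both cytokines.

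**Figure D4:**
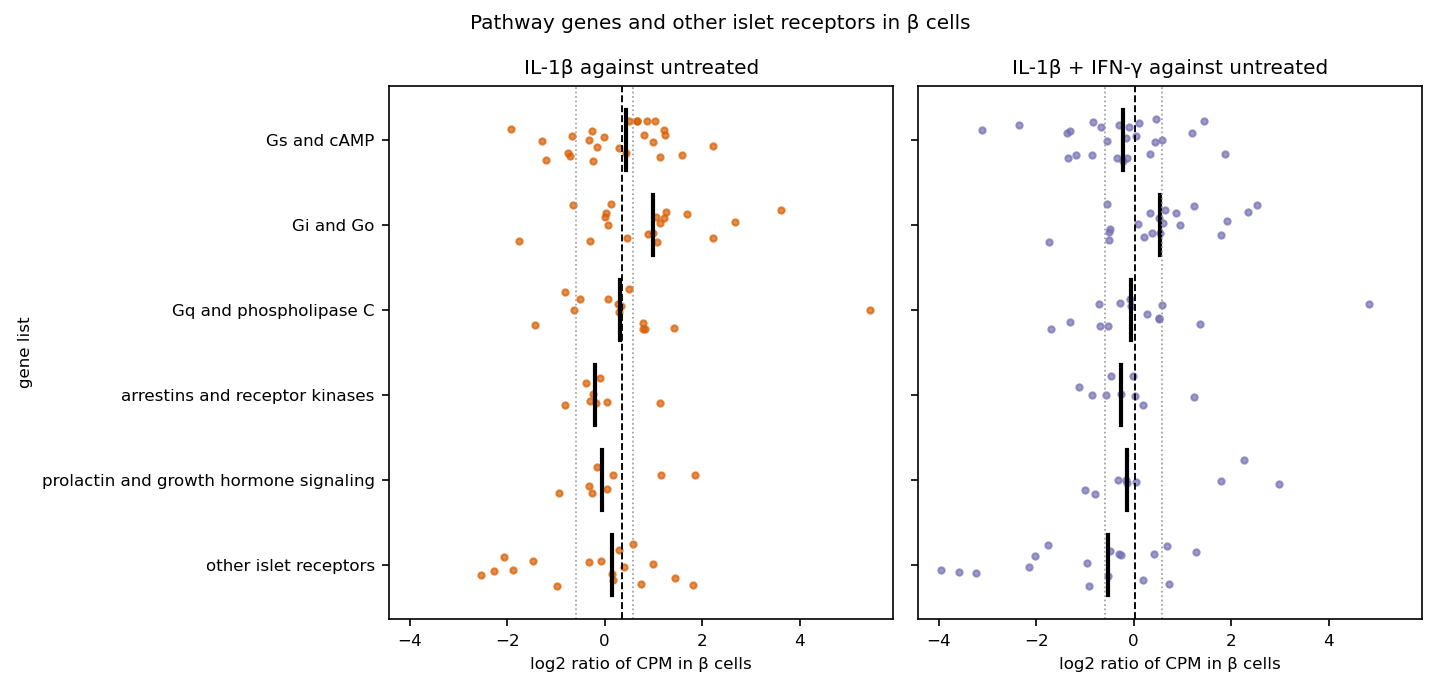
log2 ratio of β-cell CPM to the untreated library for each tested gene of 6 lists (points, spread at random in height), with IL-1β and with IL-1β + IFN-γ; black bars are list medians, dashed lines the median of all genes tested and dotted lines 1.5-fold. The Gi and Go median is 0.99 with IL-1β and 0.54 with both, and Gna14, with 8 UMIs untreated, is the point farthest to the right in either panel.

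The α-cell counts of the same lists stand beside all-gene shares of 18.9% higher and 16.5% lower with IL-1β, 15.1% and 5.8% with IFN-γ, and 18.3% and 21.4% with both. Over the all-gene median these shares were 18.3% and 17.3%, 11% and 8.75%, and 20.6% and 18.2%. Division by the all-gene median changed no list count in α-cells with IL-1β. With IFN-γ it gave 2 higher and 3 lower for the Gs and cAMP genes, 2 and none for the Gq genes, and none and 2 for other islet receptors. With both it gave 5 and 4 for the Gs and cAMP genes, 5 and 3 for the Gi and Go genes, and 1 and 2 for the Gq genes. In α-cells 8 of 18 Gi and Go genes were higher and 3 lower with IL-1β, 3 of 20 were higher and none lower with IFN-γ, and 4 of 17 were higher and 3 lower with both. Gng2 was again high, at 23.6, 156, 42.7 and 127 CPM, and Gnai1 low, at 102, 30.0, 78.4 and 23.6 CPM. Of the Gs and cAMP genes 4 of 21 were higher and 3 lower with IL-1β, 3 and 2 of 21 with IFN-γ, and 4 and 4 of 19 with both. Among the higher genes Rgs16 with IL-1β, Kcnj3 and Prkcb with IFN-γ, and Rgs9 with both passed the minimum through the treated library alone. Pde4b was 2.87-fold higher with IL-1β and 3.56-fold with both, from 11 untreated UMIs and past the minimum through the treated libraries alone, and Pde1c 2.44-fold and 3.10-fold. Of the Gq genes 2 of 7 were higher and 2 lower with IL-1β, 3 and none of 10 with IFN-γ, and 1 and 3 of 6 with both, Plcb4, a phospholipase C gene, being 3.71-fold higher and Itpr1 1.98-fold lower with IL-1β.

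Of the arrestins and receptor kinases 2 were tested in α-cells, with 1 higher and none lower with IL-1β, none and 1 with IFN-γ, and 1 and none with both. Grk3 was 2.5-fold higher with IL-1β and 2.97-fold with both. Prolactin and growth hormone signaling had 1 of 4 higher and 2 lower with IL-1β, none and 1 of 4 with IFN-γ, and 1 and 2 of 3 with both. Jak2 in α-cells had 4 UMIs untreated, 51 with IL-1β and 69 with both, at ratios of 4.73 (1.74 to 18.0) and 9.78 (3.65 to 36.9), and reached the UMI minimum through the treated libraries alone. Ghr, the growth hormone receptor gene, was 1.68-fold and 2.40-fold lower. Other islet receptors had 1 of 10 higher and 6 lower with IL-1β, none and 1 of 9 with IFN-γ, and 1 and 4 of 6 with both. Gpr119 was 5.49-fold lower with IL-1β and 9.34-fold lower with both, and the oxytocin receptor gene Oxtr 3.97-fold and 9.59-fold lower. Gpr119, and Oxtr with both, passed the UMI minimum only through the untreated library, where they were high, so nothing is read from those calls.

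For δ-cells the all-gene shares were 21.6% higher and 12.5% lower with IL-1β, 12.9% and 7.34% with IFN-γ, and 22.5% and 20.4% with both. Over the median these shares were 18.2% and 15.6%, 12.2% and 8.4%, and 22.6% and 20.3%. In δ-cells 3 of 8 Gs and cAMP genes were higher and 1 lower with IL-1β, 1 and 2 of 14 with IFN-γ, and 2 and 1 of 6 with both, which over the median were 2 and 2, 1 and 3, and 2 and 1. Gi and Go genes gave 2 of 15 higher and 2 lower, none and 1 of 16, and 1 and 1 of 11, and Gq genes 1 of 4 higher and none lower, 2 and none of 6, and 1 and 1 of 4. Over the median the Gi and Go genes were 2 and 3 with IL-1β, and the Gq genes 1 and 1 with IL-1β and 1 and none with IFN-γ. Of the genes called higher with IL-1β, 2 of 3 in the Gs and cAMP list, 1 of 2 in the Gi and Go list and 1 of 1 in the Gq list passed the minimum through the treated library alone. Pde1c was 2.83-fold higher with IL-1β (1.65 to 5.12) and Plcb4 4.51-fold higher (2.74 to 7.87), from 17 and 18 untreated UMIs, and both passed the minimum through the treated library alone. Pde1c and Plcb4 were also among the genes called higher under both cytokines, and passed it there in the same way. Pde10a, another phosphodiesterase gene, was 2.19-fold lower with IL-1β and 2.56-fold lower with both, Gnao1, the Go α-subunit gene, 2.06-fold and 2.46-fold lower, and Ghr 1.71-fold and 1.98-fold lower. With both, Ghr passed the UMI minimum only through the untreated library, where it was high. Igf1r was 2.54-fold higher with IL-1β and 1.61-fold with both.

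Likeness of genes across the 4 classes and 4 libraries was described by Pearson's r of log2(CPM + 1) over these 16 points, which share libraries and classes. Sstr3 and Adra2a were each nearest to the other among 11506 genes, at r = 0.942, followed by Ssfa2 and Nus1 for Sstr3 and by Degs1 and Tle3 for Adra2a. Ffar1 was nearest to Ntrk2 (0.943), Ero1lb and Pcx, and Prlr to Muc4 (0.918), Cib3 and 2410021H03Rik. Gipr was nearest to Crot (0.917), Smpd2 and Plch1, Gcgr to Fam174b (0.891), Creld2 and Sdf2l1, and Glp1r to Atp4a (0.889), Thsd4 and Phactr3. Glp1r had 0 UMIs in α- and PP cells and 1 in δ-cells, and Gcgr had 1 each in α- and PP cells. Many points of these 2 genes were thus at or near 0. Ffar4 was nearest to Epcam (0.969), Pitpnc1 and Plin3, and had r of -0.803 with Ffar1 and -0.793 with Prlr. Ghsr, with 49 UMIs, fell short of the 100 UMIs required.

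The remaining receptors lie on chromosome 17 (Glp1r, 30901817 to 30940791, plus strand), chromosome 7 (Gipr, 19156061 to 19166127, minus strand), chromosome 15 (Sstr3, 78537008 to 78544685, minus strand, and Prlr, 10177238 to 10349180, plus strand), chromosome 19 (Ffar4, 38097071 to 38114263, and Adra2a, 54044151 to 54048982, both plus strand) and chromosome 3 (Ghsr, 27371351 to 27378010, plus strand) of GRCm38. All 9 are annotated as protein-coding. Their identifiers in the count tables are ENSMUSG00000024027 (Glp1r), ENSMUSG00000030406 (Gipr), ENSMUSG00000025127 (Gcgr), ENSMUSG00000044933 (Sstr3), ENSMUSG00000044453 (Ffar1), ENSMUSG00000054200 (Ffar4), ENSMUSG00000051136 (Ghsr), ENSMUSG00000033717 (Adra2a) and ENSMUSG00000005268 (Prlr).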

How the data were processed

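Islet cells of 4 libraries, 1 per condition, were counted by the authors with Cell Ranger on the mm10 build, per the submitters' processing notes, and the deposited matrices hold raw UMI counts per gene and cell (matrix header software version 3.0.0). The GEO labels and the study's methods name different versions of the capture kit, and no step here depends on it. With Python 3.11.15, numpy 2.4.6 and scipy 1.17.1, cells were filtered at 200 to 4000 genes and at most 12% mitochondrial UMIs, classed by hormone share, and UMIs were summed by class and library. No doublet caller was run; cells with 2 hormones were set aside as mixed. Non-endocrine classes needed 3 markers of 1 list. Shares were compared after thinning to 4000 UMIs (random seed 1). With 1 library per condition no test between conditions was possible, and p-values were not computed. The procedures were tested on simulated data.

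The members and lists were chosen with earlier results of these data known. Named genes were, per list, up to 4 past 1.5-fold in β-cells in 1 direction with IL-1β and with both, plus the most abundant, and up to 2 in α- and δ-cells. Gene positions are from the GENCODE annotation on GRCm38 and promoter windows from RefSeq on GRCm38.p6. Motifs were searched on both strands. Alternatives covered the cell filters, class rules, totals, thinning, UMI minimum and fold threshold.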

Additional observations from a re-analysis of the deposited data

Results flagged for a closer look

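Cells that carried neither a leading hormone nor 3 markers of any list were left without a class, 53 untreated, 152 with IL-1β, 121 with IFN-γ and 93 in the combined library. They enter no comparison, but for 2 receptors the counting interval of a treated library lay above that of the untreated one. Ffar1 measured 34.4 CPM in the IFN-γ library, from 23 UMIs, against 3.34 CPM untreated, from 1 UMI. Adra2a measured 50.6 CPM in the IL-1β library, from 37 UMIs, against 6.69 CPM untreated, from 2 UMIs. The makeup of these cells was not tested.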

How the results depend on the processing

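Counts of receptors past 1.5-fold in β-cells stayed within 1.5 times of 8 with IL-1β and of 5 with both cytokines under every alternative run. The other counts were small and moved. In β-cells with IFN-γ 2 became 1 with no upper gene limit, with a leading hormone at 2% and with a minimum of 200 UMIs, 4 with hormone genes left out of the totals, and 0 with thinned cells and at 2-fold. In α-cells with IL-1β 2 became 1 with no upper gene limit, thinned cells, a minimum of 200 UMIs, the mean over cells, and 2-fold. In α-cells with IFN-γ 1 became 2 with a minimum of 20 UMIs and 0 with thinned cells and with a minimum of 200 UMIs. In δ-cells each count of 1 became 0 with thinned cells and a minimum of 200 UMIs. The δ-cell counts with IL-1β and with both also became 0 with a leading hormone at 10% and a second hormone of at most 0.2 of it, those with IFN-γ and with both became 0 under the mean over cells and at 2-fold, and that with both became 2 with a minimum of 20 UMIs. The δ-cell losses under thinning and the hormone rules were of receptors that no longer reached the UMI minimum, at ratios that also moved, Sstr3 with IL-1β to between 1.38-fold and 4.22-fold. Ffar4 with both moved to between 1.52-fold and 4.06-fold lower. Ffar1 in α-cells with IFN-γ was below the minimum in thinned cells too, at 2.74-fold and 8.51-fold in the 2 draws. Division by the all-gene median and a second random draw of the thinning were chosen after seeing the data. The former gave 4 in β-cells with IFN-γ. The latter gave 1 there, 0 in α-cells with IFN-γ and 0 in each δ-cell comparison, and turned the log2 ratio of Ffar4 in δ-cells with IFN-γ from -0.69 to 0.085; the cause was not tested. Of 350 receptor ratios over 10 settings, 312 lay inside their original interval, 37 outside and 1 was reversed. No paired analysis was possible because each condition has 1 library. Sparse receptors such as Glp1r and Ghsr are limited by depth.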

Other observations

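After the data had been seen, β-cells were split by a UMI of Nos2, the inducible nitric oxide synthase gene, within the libraries that held many such cells. In the library with both cytokines 930 cells had one and 374 did not, at median depths of 12858 and 10592 UMIs. Gipr measured 8.09 CPM in cells with Nos2 and 15.3 CPM in cells without, a ratio of 0.527 (0.379 to 0.738). Prlr measured 37.2 and 53.3 CPM, a ratio of 0.698, Ffar1 30.5 and 43.3 CPM, a ratio of 0.706, and Gcgr 4.54 and 8.30 CPM, a ratio of 0.547. Sstr3, Adra2a and Ffar4 had ratios of 1.13 (0.977 to 1.31), 0.921 (0.766 to 1.11) and 2.08 (0.872 to 6.02). With IL-1β alone 348 cells had a Nos2 UMI and 844 did not, at median depths of 9392 and 8024 UMIs. Gipr measured 8.62 and 14.7 CPM there, a ratio of 0.587 (0.375 to 0.894). Intervals around 1 were found there for 3 receptors that had ratios below 1 with both, at 0.953 (0.795 to 1.14) for Prlr, 0.869 (0.715 to 1.05) for Ffar1 and 1.17 (0.628 to 2.10) for Gcgr, while Ffar4 had 0.486 (0.268 to 0.832), on the other side of 1 from its ratio with both, Sstr3 1.23 (1.09 to 1.40) and Adra2a 0.991 (0.842 to 1.16). Glp1r and Ghsr had too few UMIs to be split. Cells of 1 library are not replicates, so these ratios have counting intervals and no test. They were not divided by an all-gene median, and a general shift in CPM between cells with and without Nos2 was not tested.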
